A study of Caenorhabditis elegans with 2 samples.

Results

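The genes described here are the 7252 loci of the nematode Caenorhabditis elegans that the Ensembl annotation of assembly WBcel235 places in its class ncRNA and that lie away from other small RNA genes. They are called other non-coding RNA genes, or loci, below. They were taken from 7764 nuclear genes of that class, among 46890 annotated nuclear genes. A total of 8 were left out by name because they encode known RNAs such as RNase P, signal recognition particle or Y-type RNAs, and 504 because a tRNA, snoRNA, snRNA or miRNA gene lay within 100 bp. A locus was counted as bound when a summit of the conservative list of reproducible peaks, called the main list, lay inside it or within 100 bp of it.

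Chromatin immunoprecipitation followed by sequencing mapped a tagged TBX-11 protein in 1 group of 2 biological replicates. The worms were whole early embryos, labelled 1 hour old and synchronised by bleaching eggs, of strain OP368. That strain carries wgIs368, a transgene with tbx-11 from a trimmed fosmid joined to TY1, EGFP and 3xFLAG tags. It carries unc-119(+) as well, in an unc-119(tm4063) mutant background. Sonicated chromatin was pulled down with an antibody against GFP according to the sample description, whereas the antibody field names tbx-11. Binding therefore refers to the tagged protein expressed from the transgene across all cells of the embryo. The design holds no second genotype, no untreated group and, in the lists analysed here, no mock pull-down. The main list held 882 peaks, the other combined list 1042, and the lists of replicates 1 and 2 held 546 and 467 nuclear peaks. The deposited lists give peaks without reads. The 95% Clopper-Pearson intervals below therefore cover counting error over loci or peaks alone, at a sequencing depth that is unknown.

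TBX-11 belongs to the T-box family, transcription factors that bind DNA through a conserved domain and are known for roles in development. In vertebrate and invertebrate relatives the favoured site contains the core GGTGTG, or CACACC on the other strand. The class ncRNA collects transcribed loci to which the annotation assigns no more specific RNA type, and few of them have a known function. Genes for tRNAs and several other small RNAs are transcribed by RNA polymerase III, in tRNA genes from internal A and B boxes that the factor TFIIIC binds.

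The sequences at 8 of the strongest summits are shown because the strongest signals at these loci fall on them, and because 3 of them resemble each other. Each line holds the summit base and 50 bases to each side of it in WBcel235. Capitals mark the A box core TGGCNNAG, the B box core with any base at its position 5, GTTCNANNC, and the T-box core GGTGTG, on either strand. The first 3 lines are oriented so that their shared sequence reads the same way.
C14F11.14, chrX:6207811-6207911, plus strand: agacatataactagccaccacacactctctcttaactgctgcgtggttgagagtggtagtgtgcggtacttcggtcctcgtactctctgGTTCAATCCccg
ZK816.8 and ZK816.9, chrX:3348000-3348100, plus strand: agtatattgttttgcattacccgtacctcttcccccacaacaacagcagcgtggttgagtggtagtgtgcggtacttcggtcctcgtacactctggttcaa
T22B2.12 and T22B2.9, chrX:3914470-3914570, minus strand: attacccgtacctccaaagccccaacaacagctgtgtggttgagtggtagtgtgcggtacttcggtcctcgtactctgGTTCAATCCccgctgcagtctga
T28D6.10, T28D6.13 and T28D6.15, chrIII:11371418-11371518, minus strand: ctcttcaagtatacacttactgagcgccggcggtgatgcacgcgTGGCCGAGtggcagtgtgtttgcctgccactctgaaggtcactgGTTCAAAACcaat
K10H10.11 and K10H10.14, chrII:14496982-14497082, plus strand: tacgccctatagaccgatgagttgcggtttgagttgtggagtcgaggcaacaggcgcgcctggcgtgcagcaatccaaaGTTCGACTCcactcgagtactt
W01D2.7, chrII:14804482-14804582, plus strand: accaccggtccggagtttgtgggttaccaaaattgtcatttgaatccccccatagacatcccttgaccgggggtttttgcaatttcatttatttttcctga
F08G2.13, chrII:13834428-13834528, minus strand: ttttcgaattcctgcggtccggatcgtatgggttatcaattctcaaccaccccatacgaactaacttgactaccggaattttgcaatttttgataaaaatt
W01D2.9, chrII:14804681-14804781, plus strand: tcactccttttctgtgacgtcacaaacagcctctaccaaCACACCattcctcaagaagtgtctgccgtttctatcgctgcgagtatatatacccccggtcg

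The first 3 of these sequences belong to 1 group of similar stretches on chromosome X. Their printed windows share an unbroken run of 33 bases, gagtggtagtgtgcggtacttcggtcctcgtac. Over 100 bases to each side of the summit, C14F11.14 and the ZK816 pair were 90.8% identical along 109 aligned bases. C14F11.14 and the T22B2 pair were 89.0% identical along 109, and the ZK816 and T22B2 pairs 88.3% along 180. A search of the genome with the C14F11.14 window found 2 further matching stretches, both on X, at an E-value of at most 1e-05. The longer one, 90.4% identical along 104 bases, lies at the K02D3.5 pair of loci (WBGene00200189 and WBGene00200739), which face each other on opposite strands between genes. It had no main-list peak, and its candidate peaks in the replicates' ranked lists had signals of 18.6 and 7.97. The shorter match covered 32 bases outside any annotated gene. None of the windows of the group matched an annotated tRNA gene at an E-value of 0.001 or less. Over all 48 summits at these loci 1 window did, at Y81B9A.5, with 90.3% identity along 31 bases, and 4 of 510 windows did among peaks with no ncRNA-class or other small RNA gene nearby. W01D2.7 and F08G2.13 were not paired by the comparison of windows. Their printed lines still share short stretches in the same order, among them cggtccgga, ccccata and ttttgcaattt.

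Few of the loci were bound, although summits fell on them more often than their length would give. In all, 65 of 7252 loci were bound in the main list (0.896%, 0.692 to 1.14), against a background of 2.1% of all annotated nuclear genes under the same rule. The share of loci was below this background, which includes long protein-coding genes and the tRNA genes. The loci with 100 bp to each side cover 2.16% of the nuclear genome, and 48 of 882 summits fell there (5.44%, 4.04 to 7.15). The ratio of these shares was 2.52 (1.87 to 3.31). The loci lie by definition more than 100 bp from any tRNA, snoRNA, snRNA or miRNA gene. Few summits at them could therefore lie within 100 bp of one, and none of the 48 did. Among the 566 main-list summits with no such gene nearby, the 48 were 8.48% and the ratio was 3.93 (2.93 to 5.13). The rise follows from the definition, since the summits left out could hardly lie at the loci.

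Set beside other classes of gene, this ratio lay far below that of tRNA and snoRNA genes and above that of piRNA genes and pseudogenes. None of their intervals overlap its own. The same ratio was 164 for tRNA genes, of which 244 of 612 were bound, and 58.9 for snoRNA genes, of which 59 of 346 were bound. It was 0.103 (0.0124 to 0.370) for the 15363 piRNA genes, which encode short germline RNAs, and 0.532 (0.311 to 0.847) for pseudogenes. Long intergenic RNA genes had 2 of 194 loci bound and a ratio of 0.834 (0.101 to 3.00), an interval that overlaps the one of the loci described here. The intervals of miRNA genes, with 6.27 (1.71 to 16), and antisense RNA genes, with 1.91 (0.231 to 6.88), overlap it too. For snRNA genes the ratio was 39.0 (21.4 to 65.1), and 0 of 20 rRNA genes were bound. Protein-coding genes had a ratio of 0.734 (0.683 to 0.785). With their flanks they cover 65.8% of the nuclear genome, so their ratio could not have reached 1.87, the lower bound of these loci, whatever the peaks.

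The 65 bound loci are not 65 separate sites. They merge into 48 stretches of non-overlapping sequence, and 30 of the 65 (46.2%, 33.7 to 59.0) overlap another locus of the same class on the opposite strand, as do 32.9% of all 7252. Of the 48 summits, 32 lay at 1 locus, 13 at 2 and 3 at 3. All intervals over loci, here and in other paragraphs, count loci that share a summit as separate and are therefore too narrow. Both loci of C47D2.4 (WBGene00200050 and WBGene00200208) occupy the same bases on opposite strands and share 1 summit. T05E11.9 and C06A6.14 were the bound loci with more than 1 summit, and each had 2.

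The signal value of a peak is the authors' measure of its strength, on a scale that is not stated. C14F11.14 (WBGene00197710) had the highest signal, 375.5 in the main list, with peaks of 189.2 in replicate 1 and 183.3 in replicate 2, and ranked 35th of 882. The summit shared by T28D6.10, T28D6.13 and T28D6.15, inside the alpha-tubulin gene tba-7, had 301.7, with 170.6 and 125.7 in the replicates. K10H10.11 and K10H10.14 followed with 252.2, and with 165.7 in replicate 1 and 84.1 in replicate 2. Replicate 1 was the higher in each of these 3.

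R144.16, in an intron of the kinesin gene klp-6, had a signal of 249.3, with 126.8 and 109.8 in the replicates. Its summit lies 51 bp past the locus and inside a signal recognition particle RNA gene, one of those left out by name. No other of the 48 summits lay within 100 bp of such a gene. ZK816.8 and ZK816.9 had 240.2, with 125.9 and 118.9. ZK816.9 spans 57 bp and was the shortest bound locus. The T22B2 pair, which shares its sequence, had 115.2, with 70.2 and 49.9 in the replicates.

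W01D2.7 had 212.6 in the main list and 90.9 in replicate 2. W01D2.9, about 200 bp further along chromosome II, had a main-list peak of its own at 184.2, with 107.3 in replicate 1 and 60.9 in replicate 2. The main-list peaks of both overlapped that replicate 1 peak, whose summit lies 18 bp from the summit at W01D2.9 and 217 bp from the one at W01D2.7. F57B10.17, 94 bp upstream of the trehalase gene tre-1, had 212.2, with 125.2 and 92.6. F08G2.13 had 184.6, with 110.6 and 80.1. These loci completed the strongest 9 summits, whose peaks all overlapped one in each replicate list, in replicate 1 at W01D2.7 only through the peak centred at W01D2.9.

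From the tenth summit on, signals fell towards the median. T28F4.7, in an intron of T28F4.1, had 134.6, and it was the only one of the strongest 14 with the higher value in replicate 2, 73.5 against 63.6. W02F12.11, upstream of dlst-1, which encodes a subunit of a tricarboxylic acid cycle enzyme complex, had 132.9, with 78.5 and 58.6. F52D10.7, upstream of the 14-3-3 gene ftt-2, had 110.8 and a thresholded peak only in replicate 1, at 67.8. Y38F2AR.16 and Y38F2AR.17, upstream of trap-3, had 109.8, with 62.7 and 45.8 in the replicates.

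**Figure D1:**
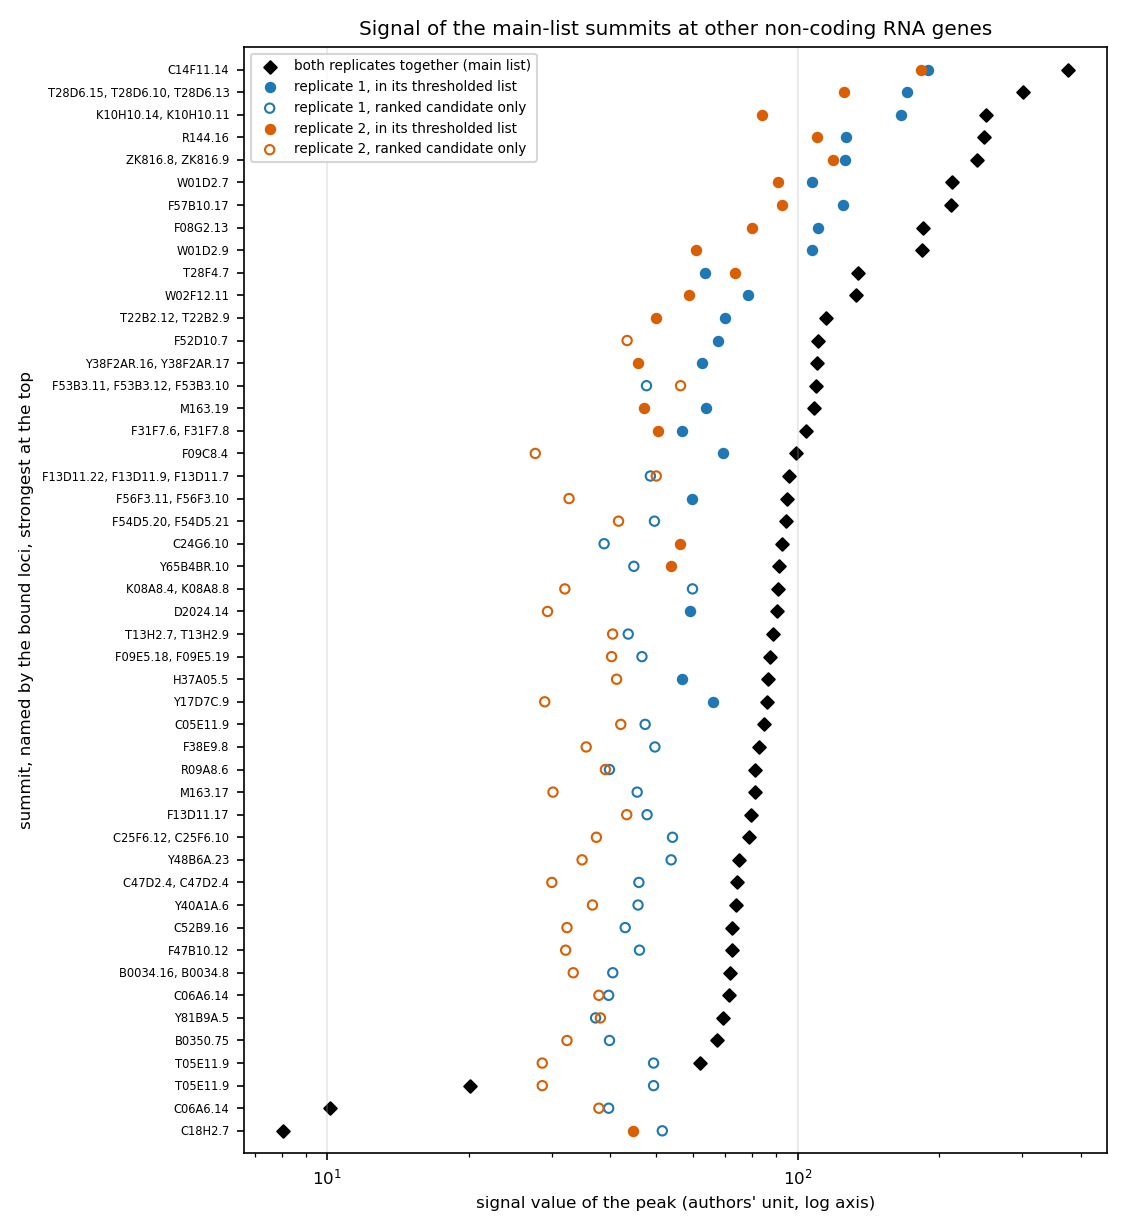
Each row is 1 of the 48 main-list summits at other non-coding RNA genes, named by its loci, and the log axis gives the signal value in the authors' unit for the main list (diamonds), replicate 1 (blue) and replicate 2 (orange). Filled circles are peaks of a replicate's thresholded list and open circles are candidates of its ranked list only. Filled circles in both colours occur at 15 summits, all among the 24 strongest.

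Over all 48 summits the signal ran from 8.06 to 375.5 with a median of 90.6, against 103.5 over all peaks, 150.5 at tRNA genes and 89.1 over 510 peaks with no ncRNA-class or other small RNA gene nearby. The typical peak at these loci was thus as strong as the typical peak away from any small RNA gene. The lowest values were 8.06 at C18H2.7 and 10.1 and 20.1 at the second summits of C06A6.14 and T05E11.9, in that order. At both second summits the strongest replicate candidates had the same signals as at the first summit of the locus, 39.7 and 37.8 at C06A6.14 and 49.4 and 28.6 at T05E11.9. At C18H2.7 they were 51.6 and 44.7, so that at these 3 summits the main-list signal was below both replicates' candidates, unlike at the other 45. Those candidates were matched by overlap of peaks, and their summits lie 218 and 223 bp from the C18H2.7 summit and 192 and 205 bp from the second summit of C06A6.14. At the second summit of T05E11.9 they lie 183 and 42 bp away.

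Summits with peaks in both replicates were among the stronger ones. A peak in both replicate lists overlapped 15 of 48 summits (31.3%, 18.7 to 46.3), 6 had one in replicate 1 only, 3 in replicate 2 only and 24 (50%, 35.2 to 64.8) in neither. Of the 24 stronger summits 15 were found in both replicates (62.5%, 40.6 to 81.2), and of the 24 weaker ones 0 were (up to 14.3%) and 20 were in neither. The signal entered both the list thresholds and this split. Support was read from overlapping peaks. The replicate 1 summit lay over 100 bp from the main summit at W01D2.7, among the 15, and the replicate 2 summit did at C18H2.7, among the 3. All peaks of the main list had 39.1% in both and 37.2% in neither, and those at tRNA genes 67.2% and 13.4%. The 510 peaks away from small RNA genes had 21.6% (18.1 to 25.4) in both and 50.2% in neither, with intervals that overlap those of the loci described here.

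Counted over loci, 36 of 7252 were bound in the list of replicate 1 (0.496%, against 1.46% of all nuclear genes) and 25 in that of replicate 2 (0.345%, against 1.37%). In the other combined list 81 were bound (1.12%, against 2.28%), and 53 of the 65 were among them. By their own summits in each replicate list, 21 of the 65 were bound in both. All 48 summits overlapped a candidate in both ranked lists, with median signals of 52.7 in replicate 1 and 41.4 in replicate 2. At the 24 summits without a thresholded replicate peak, these candidates had signals of 37.2 to 59.8 in replicate 1 and 28.6 to 56.4 in replicate 2. Replicate 1 was the higher at 42 of 48, with a median ratio of 1.33, against 1.28 over all main-list peaks. Across the 48 summits the replicates' signals had a Spearman rank correlation of 0.516, a description across peaks of shared libraries.

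Most bound loci lay between protein-coding genes. Of the 65, 54 (83.1%, 71.7 to 91.2) overlapped no protein-coding gene, against 54.5% of all 7252 loci. Those between genes were bound in 1.37% of cases (1.03 to 1.78), those wholly in an intron in 0.282% (0.114 to 0.580) and those overlapping an exon in 0.490% (0.134 to 1.25). Relative to the bases they cover, the ratio was 3.87 (2.78 to 5.23) between genes, 0.811 (0.264 to 1.89) in introns and 1.53 (0.417 to 3.90) at exons. The intervals between genes and in introns do not overlap, and the interval in introns includes 1. Protein-coding genes with 100 bp to each side held 48.3% of all 882 summits on 65.8% of the nuclear bases. Peaks of any kind were thus more frequent away from these genes than the bases there would give. The shares and ratios above do not take account of this.

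The 11 bound loci inside a protein-coding gene, 16.9% of the 65 against 45.5% of all loci, lay in 8 hosts. Besides tba-7, klp-6 and T28F4.1 these were his-24, nhr-47, ivns-1, C17H11.6 and coel-1. M163.19 overlaps an exon of his-24, which encodes a linker histone, on the opposite strand, with a signal of 108.6 and peaks in both replicates. C24G6.10 overlaps an exon of the nuclear hormone receptor gene nhr-47 on the opposite strand, with 92.9 and a thresholded peak in replicate 2 only. C52B9.16 overlaps an exon of coel-1, which encodes a protein related to a tubulin cofactor, with 72.7 and no thresholded replicate peak. R09A8.6 lies in an intron of ivns-1, with 81.4. The host had the same strand at 4 loci and the opposite strand at 7, against 1023 and 2235 of all loci. Peaks in both replicates were found at 6 of these 11 loci (54.5%, 23.4 to 83.3) and at 16 of the 54 between genes (29.6%, 18 to 43.6), with overlapping intervals. Among the 6 are the 3 T28D6 loci, which share the same summit.

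Most of the bound loci lay near the starts of protein-coding genes. A promoter window, from 1000 bp upstream to 500 bp downstream of an annotated start, held 33 of the 48 summits (68.8%, 53.8 to 81.3), against 43.5% of all 882 and 52.2% (47.7 to 56.6) of those 510. The intervals of the 48 and the 510 overlap. Of the 33, 30 lay upstream of the nearest start, by a median of 395.5 bp. Loci whose midpoint lay in such a window were bound in 2.24% of cases (1.63 to 3.01), and those outside in 0.413% (0.259 to 0.624). They made up 26.5% of all loci and 66.2% of the bound ones.

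Promoter windows hold many peaks of any kind, so the bases inside them were compared with each other. Within promoter windows the loci and their flanks cover 2.15% of bases and held 33 of 384 summits, a ratio of 4.0 (2.78 to 5.51). Outside them they cover 2.16% and held 15 of 498 summits, a ratio of 1.39 (0.784 to 2.28) whose interval includes 1. With summits at tRNA, snoRNA, snRNA and miRNA genes left out, the ratios were 5.11 (3.58 to 7.02) and 2.61 (1.48 to 4.22). The second pair of intervals overlaps, and the first does not.

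Bound loci upstream of genes included the F53B3 group of 3, 369 bp upstream of the planar polarity gene vang-1, with a signal of 109.5. F56F3.10 and F56F3.11 lay upstream of rps-1, which encodes a ribosomal protein of the small subunit, with 95.2. K08A8.4 and K08A8.8 lay 620 bp upstream of the MAP kinase kinase gene mek-1, with 90.9. T13H2.7 and T13H2.9 lay upstream of spat-3, a relative of a Polycomb component, with 88.5. Of these, the F56F3 pair had a thresholded peak in 1 replicate and the others in neither. Another 10 summits lay over 2000 bp from any annotated start. One of these was F13D11.17, 2926 bp upstream of hbl-1, which encodes a Hunchback-related transcription factor of developmental timing.

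**Figure D2:**
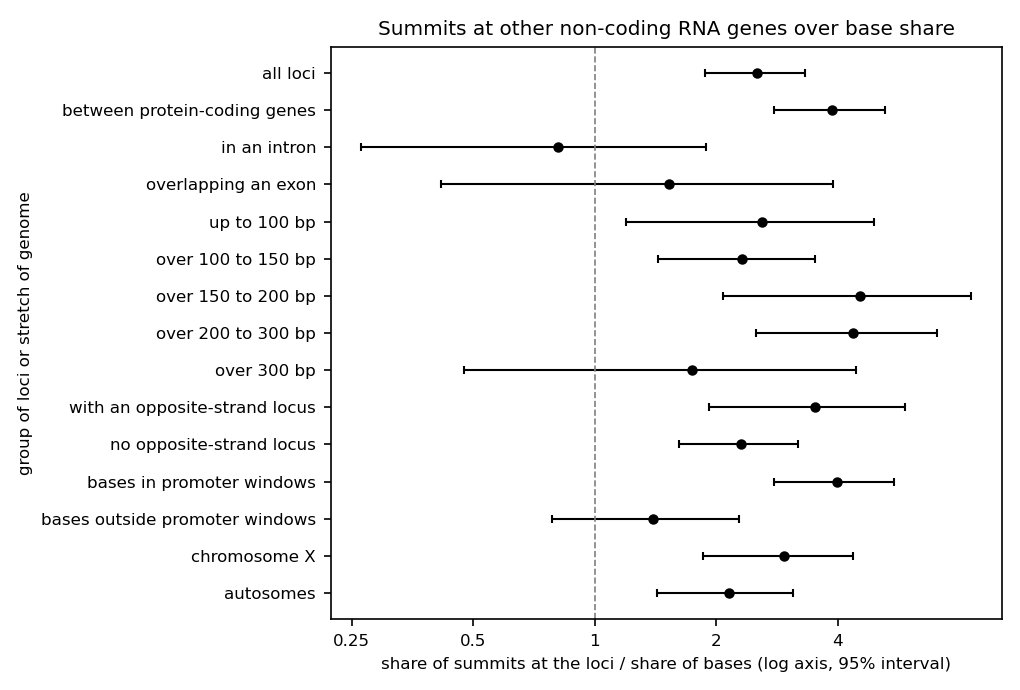
Points give the share of main-list summits at a group of loci divided by the share of bases the loci cover with 100 bp to each side, on a log axis, and bars give the 95% Clopper-Pearson interval; the dashed line is 1. The ratio was 3.87 for loci between genes and 0.811 for loci in introns, and 4.0 inside promoter windows and 1.39 outside.

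The summit lay on the locus itself in most cases and towards its 5′ end. Taking the strongest summit for each, it was inside the annotated ends of 43 of 65 loci (66.2%, 53.4 to 77.4), before the 5′ end of 14 and past the 3′ end of 8. Of the 43, 29 were nearer the 5′ end (67.4%, 51.5 to 80.9). The median summit lay 46 bp from the 5′ end, with an interquartile range of 5 to 127 bp. Where 2 loci overlap on opposite strands, the same summit counts once for each. The rule admits only summits inside a locus or within 100 bp of it, so closeness to the locus is partly set by the rule. The share inside that even placement over a locus and its flanks would give was not computed.

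**Figure D3:**
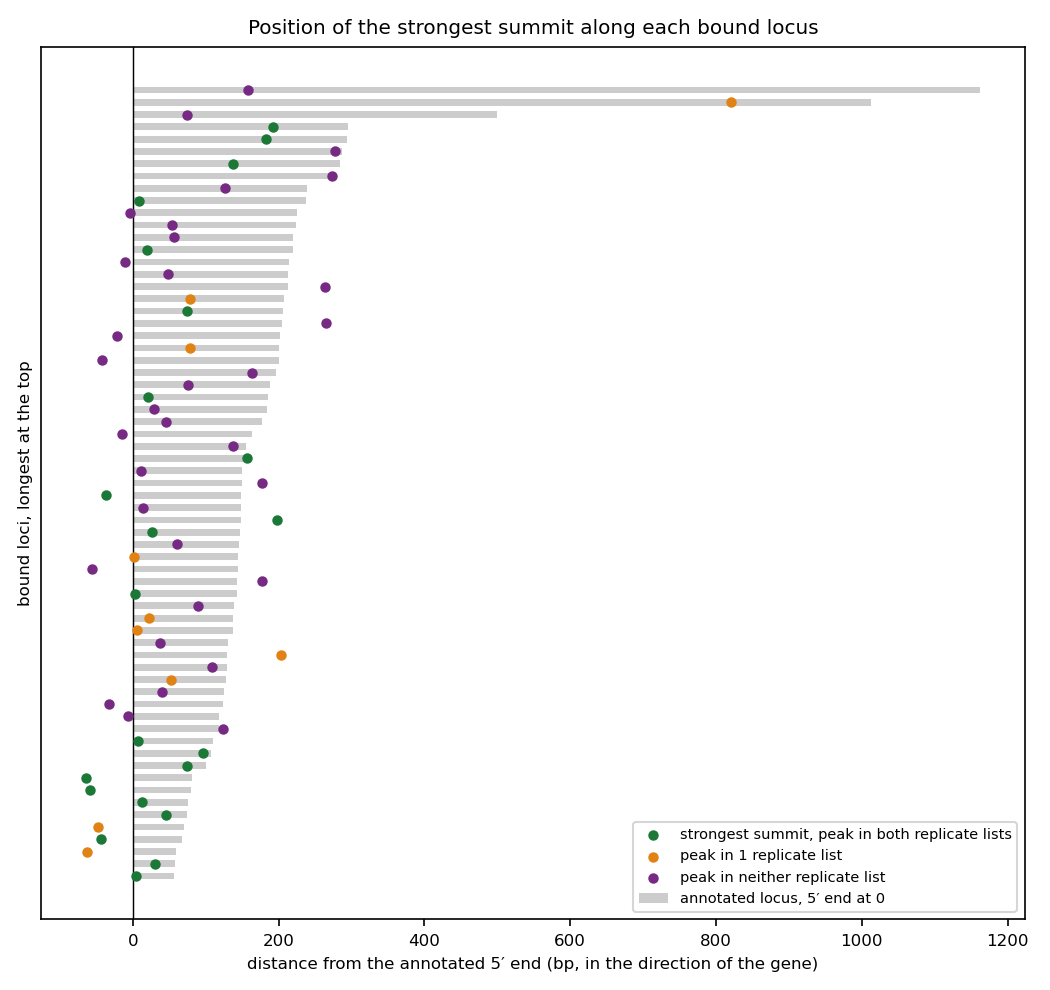
Each grey bar is 1 of the 65 bound loci, drawn from its 5′ end at 0 to its full length in bp, and the point is its strongest main-list summit, coloured by replicate support. Points lie between 64 bp before the 5′ end and 820 bp past it, and 43 lie on their bars. The rule admits no summit over 100 bp from a locus.

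Bound loci had a median length of 150 bp and an upper quartile of 213 bp, from 57 bp at ZK816.9 to 1162 bp at T05E11.9, and unbound loci had 141 and 168 bp, from 17 to 8360. Loci over 200 and up to 300 bp were 19 of the 65 bound and 1041 of all 7252, and 1.83% of them were bound (1.10 to 2.84). That share was 0.553% (0.266 to 1.02) up to 100 bp and 0.698% (0.447 to 1.04) over 100 and up to 150 bp, with intervals that do not overlap the first, but longer loci also cover more bases. Per base covered, loci over 150 and up to 200 bp had a ratio of 4.54 (2.08 to 8.58) and those over 200 and up to 300 bp 4.38 (2.51 to 7.07). Loci of up to 100 bp had 2.60 (1.19 to 4.92), those over 100 and up to 150 bp 2.31 (1.44 to 3.51) and those over 300 bp 1.74 (0.475 to 4.44). All of the intervals per base overlap. The longest bound locus, T05E11.9, had 2 weak summits of 62.1 and 20.1, and the next, Y17D7C.9 with 1012 bp, had 86.2.

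Chromosome X held 31 of the 65 bound loci (47.7%, 35.2 to 60.5) and 2347 of all loci (32.4%). On X 1.32% of loci were bound (0.899 to 1.87), and on the autosomes 0.693% (0.481 to 0.967). Per base, the ratio was 2.95 (1.86 to 4.37) on X and 2.15 (1.43 to 3.10) on autosomes, which do not differ beyond counting error. X carried few other peaks away from small RNA genes, since 21 of its 82 such summits (25.6%, 16.6 to 36.4) were at these loci, against 27 of 484 on autosomes (5.58%, 3.71 to 8.01). The corresponding ratios, 6.72 (4.36 to 9.56) and 3.09 (2.06 to 4.44), overlap at their ends. Both replicates had a peak at 4 of 21 (19.0%, 5.45 to 41.9) on X and at 11 of 27 (40.7%, 22.4 to 61.2) on autosomes, and neither did at 15 of 21 and 9 of 27, with overlapping intervals.

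The T-box core was found at a larger share of these summits than of other peaks. Within 100 bp of the summit, on either strand, GGTGTG occurred at 13 of 48 (27.1%, 15.3 to 41.9), against 44 of 518 (8.49%, 6.24 to 11.2) other main-list summits with no tRNA, snoRNA, snRNA or miRNA gene nearby and 8.40% of the centres of unbound loci. The intervals do not overlap. The 6 matches at the strongest of these 13 summits are given with 10 bases to each side, in WBcel235 and on the strand that reads GGTGTG, with that core in capitals.
W01D2.9, chrII:14804710-14804735, minus strand: cttgaggaatGGTGTGttggtagagg
T22B2.12 and T22B2.9, chrX:3914421-3914446, minus strand: ctacagacctGGTGTGcttcggcccc
Y38F2AR.16 and Y38F2AR.17, chrIV:2389058-2389083, plus strand: gggtgagtacGGTGTGtggcttggca
F53B3.10, F53B3.11 and F53B3.12, chrX:2885491-2885516, minus strand: gcgtatgtgtGGTGTGgtcagaggcg
F09C8.4, chrX:16147849-16147874, plus strand: acgagcggatGGTGTGggaagatggg
F13D11.7, F13D11.9 and F13D11.22, chrX:5812199-5812224, plus strand: gaggcggatgGGTGTGcggatggcta

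The windows at these loci were richer in G and C than others, with a median of 50.2% against 43.8% over the 510 peaks with no small RNA gene and 41.8% at the centres of unbound loci. The comparison was therefore repeated by GC content. Among windows of 50% and over, the core was in 10 of 26 (38.5%, 20.2 to 59.4) at these loci and in 13 of 114 (11.4%, 6.21 to 18.7) of the other peaks, and the intervals do not overlap. It was in 15.1% of the 786 centres of unbound loci of that GC content ( 12.7 to 17.8). At 45% to under 50% it was in 2 of 14 against 10 of 109, and under 45% in 1 of 8 against 21 of 295, with overlapping intervals. Among the 15 words that can be written with 4 G and 2 T, GGTGTG was the most frequent at these summits, with 10 at GTGTGG and GGTGGT next, and had the highest ratio to the other peaks, 3.19. The next were GTTGGG at 2.60 and GGGTGT at 2.43.

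The core occurred among both the stronger and the weaker summits, but the strongest summit with it, at W01D2.9, ranked 9th of the 48. It was in 6 of the 24 stronger (25%, 9.77 to 46.7) and 7 of the 24 weaker ones (29.2%, 12.6 to 51.1). It was in 3 of 15 with peaks in both replicates (20%, 4.33 to 48.1) and in 9 of 24 with peaks in neither (37.5%, 18.8 to 59.4). The intervals of the 24 stronger summits and of the 15 overlap that of the other peaks, 6.24 to 11.2. The T22B2 window holds the core 86 bp from its summit, whereas C14F11.14 and ZK816.8 do not. On X it was in 8 of 21 summits (38.1%, 18.1 to 61.6) and on autosomes in 5 of 27 (18.5%, 6.30 to 38.1). Outside promoter windows it was in 6 of 15 (40%, 16.3 to 67.7) and inside in 7 of 33 (21.2%, 8.98 to 38.9). Both pairs of intervals overlap. The distance from core to summit ran from 8 bp at W01D2.9 to 86 bp. Some windows with the core also held a run of repeated TG or its complement, of 20 bp at the F53B3 group and 12 bp at C05E11.9. Such runs took 10 bp at the C25F6 pair and 8 bp each at R09A8.6 and M163.17, also with the core. One of 22 bp lay at C06A6.14, where only the stronger summit had the core. The T13H2 pair, with 116 bp, and the K08A8 pair, with 14 bp, had such a run without the core. Whether such runs accompany the larger share was not tested.

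**Figure D4:**
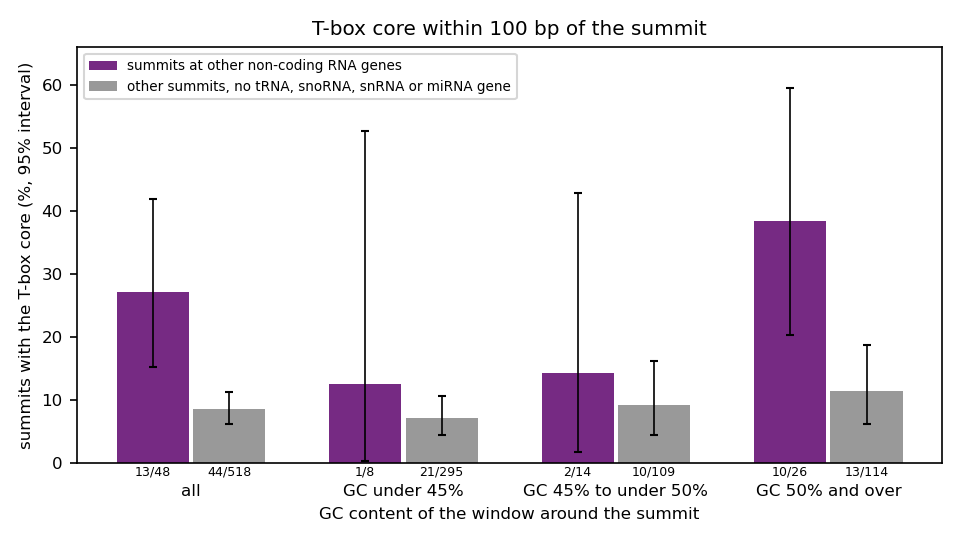
Bars give the percentage of summits with GGTGTG within 100 bp on either strand, for summits at other non-coding RNA genes (purple) and for other main-list summits with no tRNA, snoRNA, snRNA or miRNA gene nearby (grey), over all windows and by GC content; lines are 95% Clopper-Pearson intervals and the counts stand under the bars. The purple bar is at 27.1% over all windows and at 38.5% at a GC content of 50% and over, against 8.49% and 11.4%.

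Sequence elements of RNA polymerase III genes were searched for in the same windows. The strict B box core GTTCGANNC was at 3 of 48 (6.25%, 1.31 to 17.2). It was at 24.5% of all other summits, which include those at tRNA genes, where the B box is part of the gene. It was at 3.14% (1.80 to 5.05) of the 510 peaks away from small RNA genes and 1.95% (1.64 to 2.30) of the centres of unbound loci. With any base at position 5, a pattern that takes in the strict one and was chosen after the strongest sequences had been read, it was at 9 of 48 (18.8%, 8.95 to 32.6) against 10.6% (8.05 to 13.6) of those peaks, with overlapping intervals, and 6.55% (5.99 to 7.15) of the centres of unbound loci, whose interval does not overlap. At a GC content of 50% and over it was at 4 of 26 (15.4%, 4.36 to 34.9) against 6.36% (4.76 to 8.30) of those centres, with overlapping intervals. It was at 4 of the 5 strongest summits, those of C14F11.14, the T28D6 group, the K10H10 pair and the ZK816 pair. Since the pattern was chosen after such sequences had been read, this is no separate result. The 9 include these 4, and also all 3 similar windows of the X group, so they are not 9 independent occurrences. The A box core was searched for in its strict form only, and was at 2 of 48 (4.17%, 0.509 to 14.3). It was in 10.8% of the 510 peaks and 8.96% of the centres. The 3 printed windows of the X group hold tggttgag, which has T in place of C at position 4 and was not counted. At the T28D6 summit both the A box core and the relaxed B box core lie on the printed strand. A run of TTTTT, the kind of sequence at which the polymerase stops, was at 28 of 48 (58.3%, 43.2 to 72.4) against 77.3% (73.4 to 80.8). Among windows with a GC content of 50% and over, it was in 13 of 26 at these loci and in 57 of 114 of the other peaks, 50% in both. GAGAGA was at 31.3% against 18.4%, and ATTTTTGG, which resembles the site where Sm proteins bind RNA, at 6.25% against 2.35%, with overlapping intervals for both.

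Most of the summit sequences were unique in the genome. Of the 48 windows with 50 bases to each side, 9 (18.8%, 8.95 to 32.6) had a copy elsewhere, at 90% identity or more over at least 60 bp. They include strong summits, with 3 copies each at C14F11.14 and R144.16, 2 at the T22B2 pair and 1 at the ZK816 pair. The T28D6 and K10H10 windows had 0. The share of other peaks with a copy was not computed. The window at T13H2.7 and T13H2.9 had 720, since it holds a TG repeat of 116 bp. No label or header states how reads from such copies were placed. Soft-masked repeats took a median of 9.45% of the bases around these summits, against 29.4% around the 510 peaks with no small RNA gene.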

How the data were processed

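The loci, gene classes and motifs were chosen with earlier results of these data known. The authors deposited 4 ranked and 4 thresholded peak lists on ce11, the assembly WBcel235, per the labels. Per the deposited notes, each replicate's lists derive from its own alignments and the combined lists from both, against control alignments, with 1 further unnamed input for thresholded lists. Aligner and peak caller, with their versions, are not given in the sources used here. Deposited signal is a strength of unstated scale. The deposited score expresses the irreproducible discovery rate, and main-list peaks had scores of 830 to 1000.

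Summits, taken as 1 base each, were compared with Ensembl release 115 genes within 100 bp. The ratio divides the share of summits at loci by the share of the 100272607 nuclear bases in their merged windows. A replicate peak supported a main peak if they overlapped by 1 bp. A locus was in an intron if it touched no exon of its host. Motifs were sought in 201 bases of the RefSeq sequence of the assembly, and copies with BLAST 2.17.0. Intervals are 95% Clopper-Pearson, computed with scipy 1.17.1 under Python 3.11.15. No p-values were computed. The counting was tested on simulated summits. Named loci were the 15 with the strongest summits, the longest and shortest, those with more than 1 summit, and the 3 unbound ones with the strongest candidates. The loci named for the gene downstream or for weak signal, the similar stretches on X, and the comparisons by promoter window, GC content and word were chosen after values had been seen. Alternatives used the other list, each replicate alone, stronger peaks, other distances and other definitions of support and host.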

Additional observations from a re-analysis of the deposited data

How the results depend on the processing

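The ratio of summits to bases stayed above 1, with its interval, in all 13 alternatives. It was 1.78 (1.05 to 2.83) with peaks at or above the median signal, 4.17 (2.95 to 5.70) with the summit required inside the locus and 3.91 with summits and windows at tRNA, snoRNA, snRNA and miRNA genes taken out. With 1 replicate's list alone it ran from 1.78 to 2.38. The count of 65 bound loci became 26 with peaks at or above the median signal and 43 with the summit inside, and 25 to 36 with 1 replicate's list. The share of bound loci with a peak in both replicates, 33.8%, became 84.6% with peaks at or above the median signal, 100% with ranked candidate lists and 27.2% to 39.7% in the other 11. The share inside a protein-coding gene, 16.9%, was 6.15% for hosts on the same strand, 25% to 32% with 1 replicate's list, and 10.8% to 23.1% in the other 6. Added after the data had been seen, leaving out loci near genes left out by name, such as R144.16, gave 64 bound loci and a ratio of 2.47, and counting overlapping loci once gave 48. The cause of these shifts was not tested. No paired analysis was possible because the study holds 1 group. Unknown read depth, and the lack of a mock pull-down list among those analysed here, limit what a single locus can show.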

Other observations

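Of the loci that carry a name of their own, none of tts-1, tts-2, rncs-1, lfor-1, lfor-2 and linc-171 had a main-list summit within 100 bp. The non-coding gene tts-1, known for its association with ribosomes in long-lived worms, had no candidate peak in the ranked list either, and rncs-1, a double-stranded RNA that competes with Dicer substrates, had one of 16. lfor-1, in an intron of sre-13, had the strongest candidate at any unbound locus, 101.6 in the ranked list, above the median of the 48 main-list summits. It had a summit within 100 bp in the other combined thresholded list, and a peak of 66.2 in the thresholded list of replicate 1 and none in that of replicate 2. The next were C14F5.10 and C14F5.11, which share 1 candidate of 90.04 on X with no thresholded replicate peak, and C10G11.12 and C10G11.17, which share 1 of 87.1.

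A total of 9 loci had a summit in a replicate's thresholded list and none in the main list. C05D2.16, in an intron of madf-11, had the highest such value, 181.3 in replicate 1. Its nearest main-list summit, with 354.8, lay 102 bp away, just past the limit, and within 100 bp of a tRNA, snoRNA, snRNA or miRNA gene. The next loci outside the limit were C25F6.15 at 109 bp with 78.9 and ZK377.13 at 112 bp with 80.9. The bound loci farthest from their summits were F09C8.4 at 75 bp with 99.1 and W01D2.9 at 64 bp with 184.2.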
